A study of Bos taurus with 60 samples.

Results

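The miR-200 family in bovine liver was described through its 5 mature miRNAs, bta-miR-200a, bta-miR-200b, bta-miR-200c, bta-miR-141 and bta-miR-429, which were taken by name from the 1030 miRNA names listed in the count files. Liver was taken after slaughter from 60 steers, and small RNA of each was sequenced as 1 library, with 1930859 to 6759381 miRNA counts per steer. There were 20 Angus, 20 Charolais and 20 Kinsella Composite (KC) steers, KC being a crossbred beef population. In each breed the labels named 6 steers low-RFI and 6 high-RFI and gave the other 8 no RFI group. RFI, residual feed intake, is the feed an animal eats beyond what its size and growth predict, so low-RFI steers use feed more efficiently. By the study's methods the other 8 were also taken from the high or low end of RFI in their breed. All groups had the same finishing diet of barley grain, barley silage and rumensin pellets, and none received a further treatment according to the labels. By their labels the Angus steers came from 7 sires, the Charolais from 5 and the KC from 11. The 11 include NA00000001, the label of 1 KC steer, which lacks the breed letter of the others and may stand for an unknown sire. Several steers shared a sire, and the p-values below measure the spread between these steers. Except where sire was a block or sire means were removed, steers of the same sire were treated as independent. Those p-values may be too small for that reason.

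The miR-200 family is known as a group of epithelial miRNAs that lower ZEB1 and ZEB2, transcription factors that repress E-cadherin, and so help to hold cells in the epithelial state. In liver, the family is known from cholangiocytes, the epithelial cells that line the bile ducts, more than from hepatocytes, which make up most of the organ. A miRNA finds its targets mainly through its seed, the bases near its 5′ end, so members with the same seed are expected to share many targets.

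The mature sequences are shown because the seed divides the family and because some members are nearly identical elsewhere, which bears on how reads can be told apart. Capitals mark the seed, bases 2 to 8 from the 5′ end. The first seed is carried by bta-miR-200a and bta-miR-141:
bta-miR-200a: uAACACUGucugguaacgauguu
bta-miR-141: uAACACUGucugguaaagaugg
The other seed is carried by bta-miR-200b, bta-miR-200c and bta-miR-429:
bta-miR-200b: uAAUACUGccugguaaugaug
bta-miR-200c: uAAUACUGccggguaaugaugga
bta-miR-429: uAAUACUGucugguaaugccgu
Counted from the 5′ end of the mature miRNA, the seed groups differed by the single substitution C4U from bta-miR-200a to bta-miR-200b. None of the other bovine miRNAs carried either seed among 588 known mature sequences searched. Outside the seed, bta-miR-200b and bta-miR-200c differed by U11G alone over 21 bases. Within bases 1 to 18, bta-miR-200a differed from bta-miR-141 by C17A and bta-miR-200b differed from bta-miR-429 by C9U. No miRNA outside the family came within 1 mismatch of a member over 18 bases. Reads with a sequencing error or a trimmed end could therefore pass between these 3 pairs of members in the authors' counting, and the split within each of these pairs is uncertain to that degree.

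The family is encoded at 2 loci. In the RefSeq annotation of ARS-UCD2.0, MIR429, MIR200A and MIR200B lie beside each other, with TTLL10 and C16H1orf159 as the nearest protein-coding genes. MIR141 and MIR200C lie beside each other between PHB2 and PTPN6, and LOC112446758 overlaps them. The grouping by locus thus crosses the grouping by seed, since bta-miR-200a and bta-miR-141 share a seed but not a locus, and bta-miR-200c is set apart from bta-miR-200b and bta-miR-429 in the same way. Positions in UMD3.1, the build of the count files, were not used here.

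All 5 members were read in all 60 livers, and each had 1 precursor. Across steers bta-miR-141 had 171 to 1373 reads with a median of 650.0, and bta-miR-200a had 61 to 465 with a median of 163.0. The range was 21 to 184 reads for bta-miR-429, 22 to 115 for bta-miR-200b and 11 to 80 for bta-miR-200c, with medians of 57.5, 49.5 and 34.0. The lowest of these counts lay well above 3 reads, the floor set here for a count of 0, which corresponded to between 0.444 and 1.55 CPM, the count scaled to a common library total. Floors of this kind cover counting error only, since the reads carried no molecular identifiers. The samples are bulk tissue, so in each value given here fewer cells of a type and less RNA per cell cannot be told apart.

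The family was a minor part of the liver miRNA pool and was dominated by bta-miR-141. By mean count bta-miR-141 ranked between 90 and 93 in the 3 breeds, out of 736 to 760 miRNAs with counts, and bta-miR-200c ranked between 217 and 221. The 5 members together made up 0.0223% ± 0.00601 of counts in Angus, 0.0237% ± 0.00484 in Charolais and 0.0223% ± 0.00549 in KC (mean ± SD, n = 20 each). Within the family, bta-miR-141 held a median of 68.2% of the reads, bta-miR-200a 16.4%, bta-miR-429 6.27%, bta-miR-200b 5.09% and bta-miR-200c 3.69%. Since mature miRNAs are of nearly the same length, these shares can be set beside each other, but ligation and amplification differ between sequences and were not calibrated. The order of the upper members was the same everywhere, with bta-miR-141 above bta-miR-200a and bta-miR-200a above the other 3 in 60 of 60 steers. Lower down it was less fixed. In 16 steers bta-miR-200b exceeded bta-miR-429, with 2 ties, and in 52 it exceeded bta-miR-200c, with 3 ties, while bta-miR-200c exceeded bta-miR-429 in 4.

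**Figure D1:**
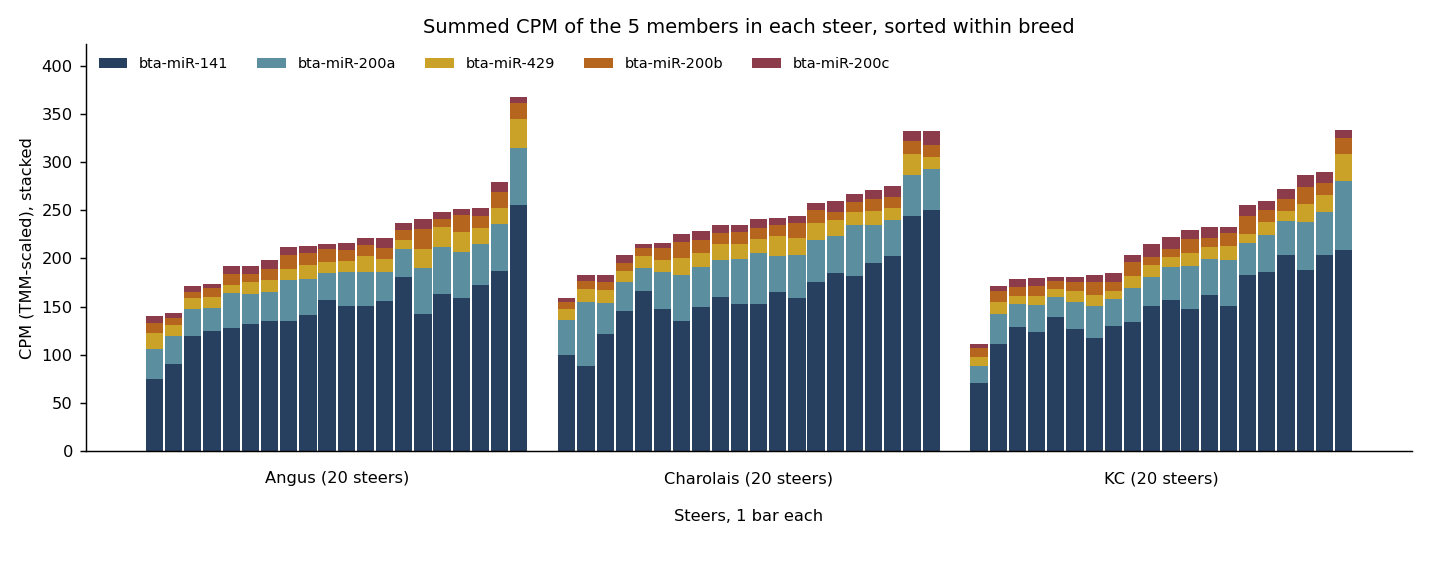
Each bar is 1 steer, sorted within breed by the summed CPM of the 5 members (y axis, linear, scaled by TMM library sizes), and the colours stack the members. The sum ran from 111 to 367 CPM, and bta-miR-141, at the base, held between 48.6% and 77.4% of it.

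The tissue label was checked with miRNAs known from other cells. Both hepatocyte miRNAs listed were read in all steers, bta-miR-122 at a median of 7887 CPM and bta-miR-885 at 37.0, and the summed CPM of the 5 miR-200 members had a median of 224. Among the other epithelial miRNAs listed, bta-miR-182 had a median of 451 CPM, bta-miR-31 of 176, bta-miR-375 of 70.3, bta-miR-183 of 16.7 and bta-miR-96 of 5.83. The squamous-type miRNA bta-miR-205 had no count in 52 of 60 steers, and bta-miR-203 was not matched by that name. The libraries therefore held miRNAs known from hepatocytes and from epithelium, and bta-miR-885 lay below bta-miR-182, bta-miR-31 and bta-miR-375 in median CPM. The cell type that carried the miR-200 reads was not measured.

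Levels were compared first between breeds, using all 20 steers of each. By the study's methods mean age at slaughter also differed between the breeds, and the labels name no sequencing batch. Breed, age and any batch could not be told apart in these comparisons. The summed CPM of the family ran from 140 to 367 in Angus with a median of 215, from 158 to 333 in Charolais with a median of 238, and from 111 to 333 in KC with a median of 218. The breeds overlapped over most of their range. For bta-miR-141 the lowest, median and highest CPM were 74.9, 146 and 255 in Angus, 88.6, 160 and 251 in Charolais, and 70.6, 149 and 209 in KC. For bta-miR-200a they were 24.5, 35.8 and 59.9 in Angus, 24.1, 40.4 and 66.2 in Charolais, and 17.9, 33.7 and 70.8 in KC. KC thus held both the highest and the lowest bta-miR-200a level of the study, and both came from steers without an RFI group.

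The 3 less abundant members were as mixed between breeds. For bta-miR-429 the lowest, median and highest CPM were 8.32, 13.1 and 29.7 in Angus, 11.5, 14.7 and 21.4 in Charolais, and 8.30, 12.03 and 28.03 in KC. For bta-miR-200b they were 6.42, 11.4 and 20.8 in Angus, 7.64, 11.6 and 16.8 in Charolais, and 8.31, 11.8 and 18.8 in KC. For bta-miR-200c they were 4.42, 7.15 and 10.6 in Angus, 3.51, 8.15 and 14.8 in Charolais, and 3.48, 8.64 and 12.5 in KC. In each case the 3 medians lay close together and the range within a breed was far wider than the gaps between them.

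No member differed between breeds at an adjusted p under 0.05. In the edgeR quasi-likelihood test over the 3 breeds 0 of 5 members passed, and DESeq2 gave 0 as well, whereas 19.9% of the 397 miRNAs tested passed. At an unadjusted p under 0.05 there were 0 members by either tool, where 34.8% of miRNAs passed in edgeR. The adjusted p of the members in that edgeR test ran from 0.3003 to 0.831. In pairs of breeds, where 2.77% of miRNAs passed for Charolais against Angus, 13.6% for KC against Angus and 17.9% for KC against Charolais, 0 of 5 members passed in each. At an unadjusted p under 0.05 in edgeR the members again gave 0 in each pair, where 18.6%, 27.7% and 29.2% of miRNAs passed in the same order. The shares for KC depended in part on 52 pairs of miRNA and precursor that were listed only for KC, none of them of a member. Without these, 30 of 391 miRNAs passed the adjusted threshold for KC against Angus and 53 of 391 for KC against Charolais. With them, 54 and 71 of 397 had passed. No member passed in either case. The nearest were bta-miR-429, with a log2 fold change of -0.23 ± 0.12 (SE) in KC against Charolais and a 95% interval from -0.48 to 0.01, and bta-miR-200a, with -0.21 ± 0.12 and an interval from -0.44 to 0.02. The edgeR adjusted p were 0.197 and 0.211. By DESeq2 these 2 had an unadjusted p under 0.05 in KC against Charolais, and 0 had one in the other pairs. Over all members and pairs of breeds the 95% intervals lay between -0.48 and 0.44 on the log2 scale, and a p that misses the threshold does not show that the breeds are alike.

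Other miRNAs listed with the epithelium were read in the same fit. Of 7 listed, 5 could be tested, and 1 rose in Charolais against Angus at an adjusted p under 0.05. This was bta-miR-182, part of the cluster with bta-miR-183 and bta-miR-96, by 0.47 ± 0.13 (edgeR, adjusted p = 0.0419). In KC against Charolais bta-miR-182 fell by 0.37 ± 0.13 (edgeR, adjusted p = 0.0334) and bta-miR-375, an endocrine and epithelial miRNA, fell by 0.32 ± 0.10 (edgeR, adjusted p = 0.0224). The other 3 did not pass in either contrast, and 0 of 5 passed in KC against Angus. Whether the miR-200 members differed less than these was not tested. Both hepatocyte miRNAs listed, bta-miR-122 and bta-miR-885, passed the test over the 3 breeds, and what part the share of cell types had in any of these values was not tested.

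**Figure D2:**
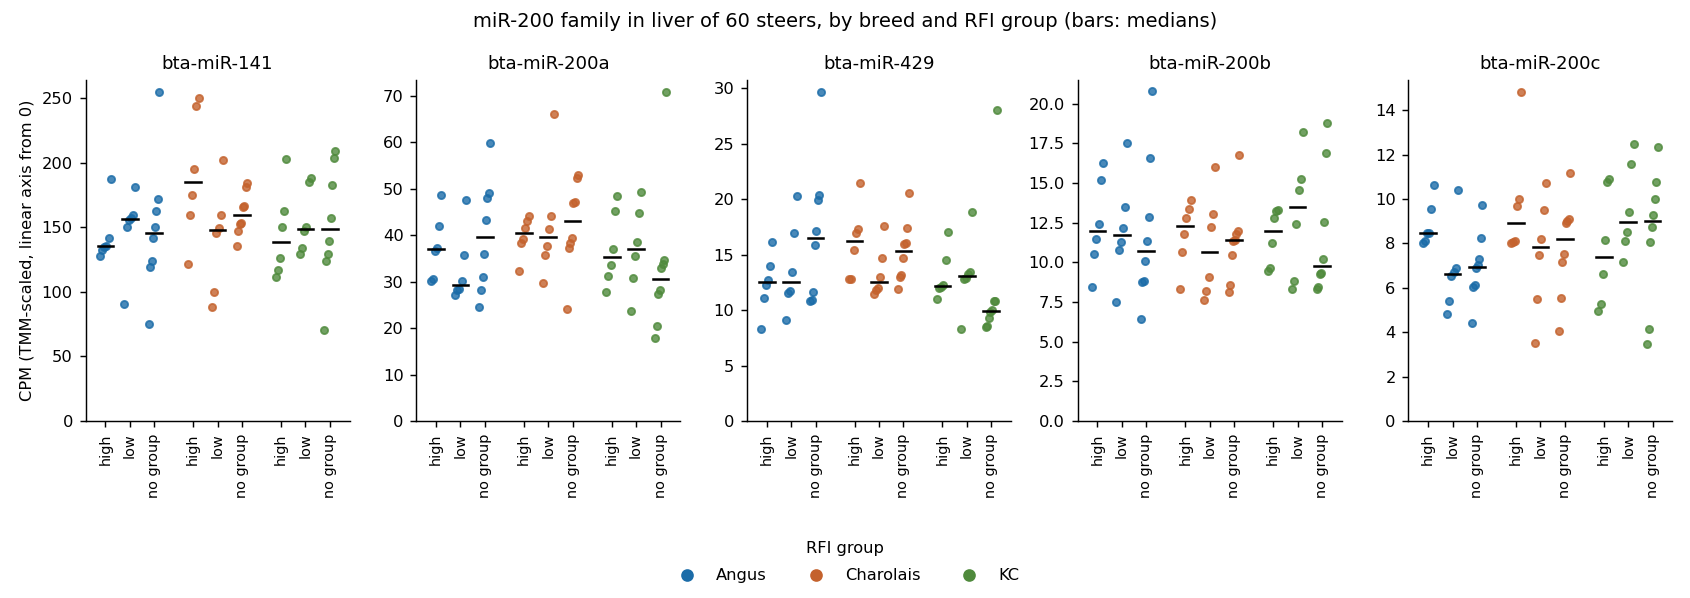
CPM of each member (y axes, linear from 0, scaled by TMM library sizes) in each of 60 steers, by breed and RFI group, with black bars at group medians. The groups overlap in all 5 panels, and single steers stand above the rest, such as the KC steer without an RFI group at 70.8 CPM of bta-miR-200a.

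Low-RFI and high-RFI steers were then compared within breeds, which was the question of the study. By its methods the steers without an RFI group also came from the high and low ends of RFI. The 12 steers per breed compared here had extreme RFI and were kept for miRNA profiles like those of the rest of their breed. The RFI groups were therefore in part selected on expression. The call rule asked for a fold change above 1.5 with an unadjusted p under 0.05 in the quasi-likelihood test of edgeR. In Angus, bta-miR-200c ran from 4.799 to 10.4 CPM with a median of 6.63 in low-RFI steers and from 8.02 to 10.6 with a median of 8.47 in high-RFI steers. The groups overlapped through a single low-RFI steer at 10.4 CPM, and the other 5 low-RFI steers lay below all 6 high-RFI steers. The log2 fold change of bta-miR-200c was -0.37 ± 0.19 (SE) with a 95% interval from -0.78 to 0.04 (edgeR, adjusted p = 0.957). Without low-RFI steer 1, the steer at 10.4 CPM, it was -0.58 (edgeR, adjusted p = 0.479), which stayed short of 1.5-fold. Over the 12 fits that each left out 1 steer it ran from -0.58 to -0.31, with unadjusted edgeR p from 0.00506 to 0.133. An exact two-sided permutation test over all relabelings of log2 CPM among the 12 steers gave p = 0.0433 for the same member, which was 1 of 15 such tests and was not adjusted.

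The other Angus members were closer between the groups. For bta-miR-141 the low-RFI steers ran from 90.9 to 181 CPM with a median of 156 and the high-RFI steers from 128 to 187 with a median of 135. For bta-miR-200a they ran from 27.2 to 47.6 with a median of 29.4 and from 30.2 to 48.7 with a median of 36.9. The log2 fold changes were 0.06 ± 0.14 for bta-miR-141, -0.18 ± 0.16 for bta-miR-200a, 0.19 ± 0.20 for bta-miR-429 and -0.00 ± 0.21 for bta-miR-200b. In Angus 0 of 5 members were called, where 2.68% of the 373 miRNAs tested were, and 0 reached an unadjusted p under 0.05 by edgeR or DESeq2, where 4.02% of miRNAs did in edgeR.

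In Charolais, 4 of 5 members had lower fitted levels in low-RFI steers. The level of bta-miR-141 ran from 88.6 to 202 CPM with a median of 148 in the 6 low-RFI steers and from 122 to 251 with a median of 185 in the 6 high-RFI steers. The groups overlapped broadly, with 1 of 6 low-RFI steers past the median of the high-RFI steers. The log2 fold change was -0.48 ± 0.21 with a 95% interval from -0.92 to -0.04 (edgeR, adjusted p = 0.786), below the 1.5-fold limit, and the exact two-sided permutation p was 0.0952. Its locus partner bta-miR-200c ran from 3.51 to 10.7 CPM with a median of 7.83 in low-RFI steers and from 8.0005 to 14.8 with a median of 8.90 in high-RFI steers. Its log2 fold change was -0.45 ± 0.25 (edgeR, adjusted p = 0.857).

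Of the members at the other locus in Charolais, bta-miR-429 ran from 11.5 to 17.6 CPM with a median of 12.5 in low-RFI steers and from 12.8 to 21.4 with a median of 16.2 in high-RFI steers, a log2 fold change of -0.31 ± 0.17. The values were -0.14 ± 0.20 for bta-miR-200b and 0.02 ± 0.17 for bta-miR-200a. Overlap of the groups was present in all of them. In Charolais 0 of 5 members were called, where 2.41% of the 373 miRNAs tested were, and 1, bta-miR-141, reached an unadjusted p under 0.05 by edgeR, as 5.36% of miRNAs did, and by DESeq2. Leaving out low-RFI steer 5, which had the highest bta-miR-141 of its group, brought 2 members past the call rule, bta-miR-141 at -0.64 and bta-miR-200c at -0.61, where 2.99% of 368 miRNAs were called. With sire as a block there were also 2, bta-miR-141 at -1.003 and bta-miR-200a at 0.73, where 11.3% of 373 miRNAs were called, and the edgeR adjusted p was 0.263. But only 1 sire had steers in both groups, 1 low-RFI and 4 high-RFI. The low-RFI one was steer 1, which had the highest bta-miR-200a and the lowest bta-miR-141 of its breed. Both values with sire as a block therefore rested on that single steer against its 4 half-sibs.

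In KC the fitted log2 differences of all 5 members lay between 0.00 and 0.30. For bta-miR-200c the low-RFI steers ran from 7.16 to 12.5 CPM with a median of 8.97 and the high-RFI steers from 4.97 to 10.9 with a median of 7.38. The groups overlapped, with 5 of 6 low-RFI steers past the median of the high-RFI steers, and the log2 fold change was 0.30 ± 0.22 (edgeR, adjusted p = 0.905). For bta-miR-141 the ranges were 129 to 188 CPM with a median of 149 in low-RFI steers and 112 to 203 with a median of 138 in high-RFI steers. The log2 fold changes were 0.10 ± 0.15 for bta-miR-141, 0.16 ± 0.20 for bta-miR-200b, 0.03 ± 0.18 for bta-miR-429 and 0.00 ± 0.18 for bta-miR-200a. In KC 0 of 5 members were called, where 1.82% of the 385 miRNAs tested were, and 0 reached an unadjusted p under 0.05 by edgeR or DESeq2, where 4.42% of miRNAs did in edgeR.

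**Figure D3:**
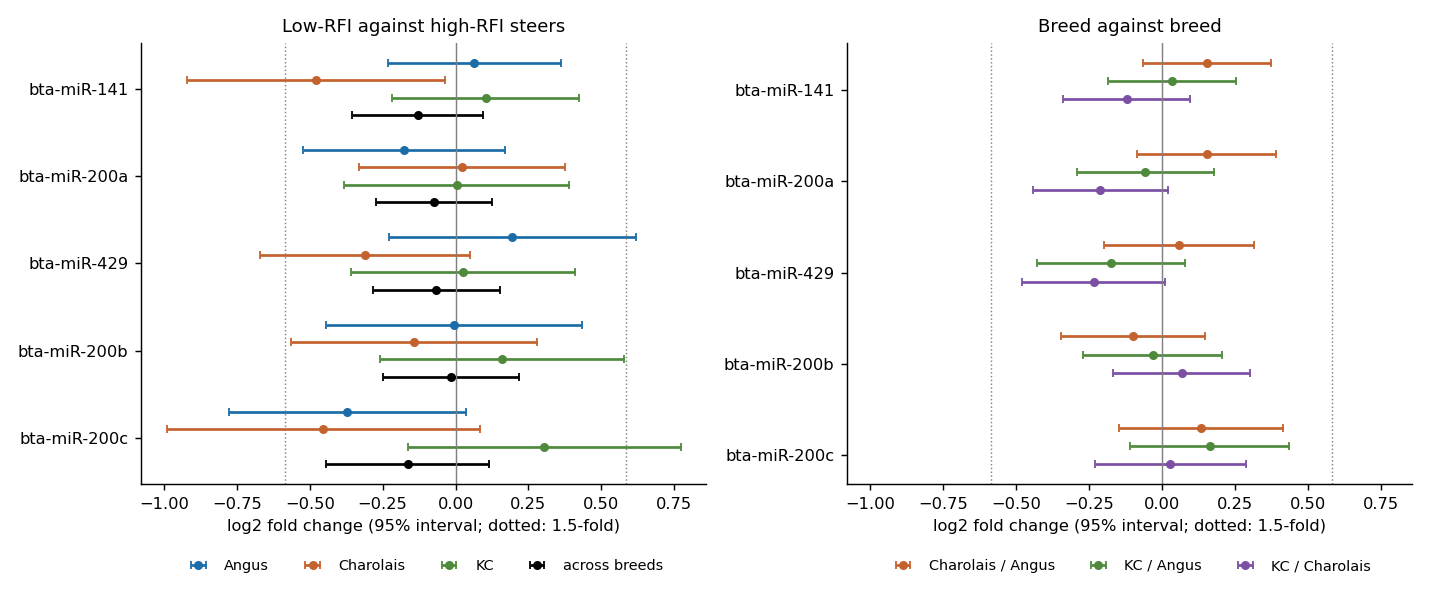
Log2 fold changes (x axis) of the 5 members with 95% intervals from edgeR, low-RFI against high-RFI steers at left and breed against breed at right, with dotted lines at 1.5-fold. In the comparisons by RFI group only the interval of bta-miR-141 in Charolais, from -0.92 to -0.04, lies apart from 0, and between breeds all intervals include 0.

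Over the 36 steers with an RFI group, with breed in the model, the 5 fold changes lay between -0.16 and -0.01 on the log2 scale. The 95% intervals lay between -0.44 and 0.22, and 0 of 5 members were called, where 0.704% of the 426 miRNAs tested were, and 0 reached an unadjusted p under 0.05 by edgeR or DESeq2, where 3.52% of miRNAs did in edgeR. The difference of the RFI effect between breeds was tested as an interaction, in which 0% of the 426 miRNAs passed at an adjusted p under 0.05 and 4.69% at an unadjusted p under 0.05. No member passed the adjusted threshold. At an unadjusted p under 0.05 there was 1, bta-miR-200c (edgeR, adjusted p = 0.914), the member that was lower in low-RFI steers in Angus and Charolais and higher in KC, each with an interval that includes 0. Of the 15 exact tests of 5 members in 3 breeds, in which the relabelings can give no p below 0.00216, 1 lay under 0.05. The other epithelial miRNAs gave 0 of 5 called in each of these RFI comparisons. Among markers of other cells 2 were called, both higher in low-RFI steers. The muscle miRNA bta-miR-133a was higher by 0.64 on the log2 scale in Charolais (1 of 2 muscle miRNAs tested, edgeR adjusted p = 0.726). The myeloid miRNA bta-miR-223 was higher by 0.67 in KC (1 of 5 leukocyte miRNAs tested, edgeR adjusted p = 0.565). Of all miRNAs tested 2.41% were called in Charolais and 1.82% in KC. The hepatocyte, mesenchymal, endothelial and erythroid lists gave 0 in each RFI comparison. The part of bta-miR-133a and bta-miR-223 in the values above was not tested. In Charolais the hepatocyte miRNAs had the opposite sign to bta-miR-141, with log2 fold changes of 0.32 for bta-miR-122 (95% interval 0.04 to 0.59, edgeR adjusted p = 0.726) and 0.30 for bta-miR-885 (95% interval -0.11 to 0.72), neither past the call rule. Low-RFI steers had 7742 to 12315 CPM of bta-miR-122 and high-RFI steers 6180 to 8319, and its part in the bta-miR-141 difference was not tested.

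The members were then compared with each other from steer to steer. Of the 10 pairs of members, 9 were correlated across the 60 steers after the mean of each breed was removed from log2 CPM (Spearman, two-sided permutation test within breeds, adjusted p under 0.05 over the 10 pairs), and by Pearson correlation there were also 9. All 10 coefficients were above 0, from rho = 0.17 to 0.68 with a median of 0.47. Over all 22155 pairs of the 211 miRNAs that reached 10 CPM in 30 or more steers, which include 4 of the members, the median rho was 0.01 and the 5th and 95th percentiles were -0.33 and 0.36. The pairs of bta-miR-200c with bta-miR-200a, bta-miR-200b and bta-miR-429, at 0.30, 0.27 and 0.17, lay within these percentiles. The share of all these pairs that would pass the same test was not computed, neither over the 60 steers nor within breeds.

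Over the 60 steers the 4 pairs encoded at the same locus had the highest coefficients, though not under each alternative. For bta-miR-200a and bta-miR-429 rho was 0.68 and r 0.70, and for bta-miR-200a and bta-miR-200b rho was 0.65 and r 0.61, each with the smallest p that 100000 permutations can give, 1e-05. For bta-miR-200b and bta-miR-429 rho was 0.51 (permutation p = 0.0001) and r 0.54 (p = 5e-05), and for bta-miR-200c and bta-miR-141 rho was 0.49 (p = 0.00019) and r 0.53 (p = 4e-05). The 4 same-locus pairs thus ran from 0.49 to 0.68 in rho, and the 6 pairs across loci ran from 0.17 to 0.48. When every steer was thinned to the lowest total the 2 ranges overlapped, at 0.34 to 0.53 and 0.18 to 0.45, and they also overlapped when sire means were removed and when Charolais low-RFI steer 1 was left out. Without the 2 steers farthest from the median of the first member of each pair, r was 0.65, 0.60, 0.51 and 0.52 for these 4 pairs in the order given.

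Across loci, bta-miR-200a and bta-miR-141, which share a seed, had rho = 0.48 (permutation p = 0.00021) and r = 0.44 (p = 0.00065), and r was 0.31 without the 2 farthest steers. For bta-miR-200b and bta-miR-141 rho was 0.47 and r 0.48, and for bta-miR-141 and bta-miR-429 rho was 0.42 and r 0.42. The lowest 3 pairs all held bta-miR-200c, at rho = 0.30 with bta-miR-200a, 0.27 with bta-miR-200b and 0.17 with bta-miR-429. The last did not pass (permutation p = 0.185, and 0.129 for r = 0.20), and r was 0.11 without its 2 farthest steers. By seed the coefficients were mixed, from 0.17 to 0.51 in the 4 pairs with the same seed and from 0.30 to 0.68 in the 6 with different seeds. The part of reads shared between near-identical members in any of these coefficients was not tested.

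Within single breeds of 20 steers the 10 coefficients were again all above 0, with fewer past the threshold. In KC 6 of 10 pairs had an adjusted p under 0.05 by Spearman correlation, with rho up to 0.88 for bta-miR-200a and bta-miR-429 (permutation p = 1e-05, the smallest possible). In Angus there were 4, led by the same pair at rho = 0.64 (permutation p = 0.00295). In Charolais there were 2, bta-miR-200c with bta-miR-141 at rho = 0.64 (permutation p = 0.00308) and bta-miR-200b with bta-miR-429 at rho = 0.57 (permutation p = 0.0098). Same-locus pairs lay above all others in rho only in Charolais, where they ran from 0.43 to 0.64 against 0.03 to 0.31. In KC the lowest same-locus pair had 0.57 and the highest of the other pairs 0.74, and in Angus these were 0.14 and 0.59. The breeds differed most in bta-miR-200a with bta-miR-141, at rho = 0.54 in Angus, 0.74 in KC and 0.03 in Charolais, where r was -0.14 and rose to 0.27 without the 2 farthest steers. Whether the coefficients differ between breeds was not tested.

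**Figure D4:**
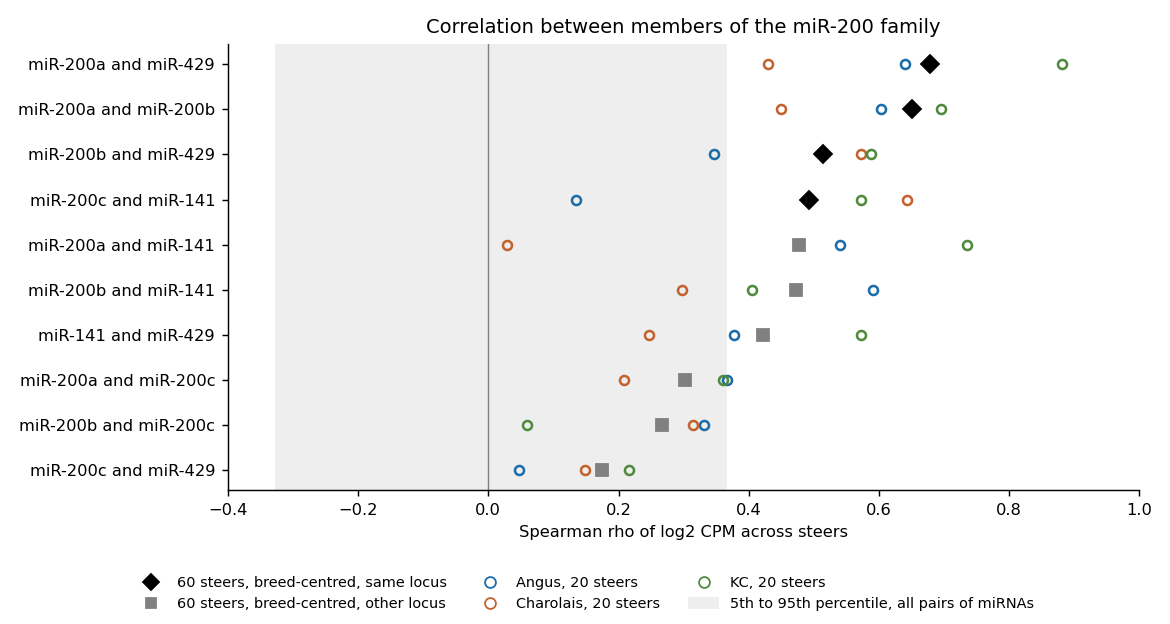
Spearman rho of log2 CPM (x axis) for the 10 pairs of members, over 60 steers centred on breed (black diamonds for pairs at the same locus, grey squares for other pairs) and within each breed (open circles), with the 5th to 95th percentile over all pairs of miRNAs shaded. The 4 same-locus pairs are at the top, from 0.49 to 0.68, and bta-miR-200c with bta-miR-429 is at the bottom at 0.17.

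The Charolais value rested in part on low-RFI steer 1. This steer had 66.2 CPM of bta-miR-200a, the highest of its breed, and 88.6 CPM of bta-miR-141, the lowest of its breed. Its library, with 2237959 counts, was also the smallest of its breed. In it bta-miR-200a made up 36.3% of the family, where the median of all steers was 16.4%. Its bta-miR-200b, bta-miR-200c and bta-miR-429, at 9.06, 5.51 and 12.995 CPM, were within the range of the breed. Over all steers without this one rho of bta-miR-200a and bta-miR-141 was 0.54, above the 0.48 of bta-miR-200c and bta-miR-141 at the same locus, and 8 of 10 pairs passed. Without this steer the same-locus pairs ran from 0.48 to 0.71 and the pairs across loci from 0.15 to 0.54, so the ranges overlapped. They also overlapped with this steer kept, after thinning and with sire means removed. The opposite picture was seen in KC steer 1 without an RFI group, in which bta-miR-200a at 70.8 CPM, bta-miR-429 at 28.03 and bta-miR-141 at 209 were all the highest of the breed. Without that steer 9 of 10 pairs passed. The lowest family sum, 111 CPM, belonged to KC steer 3 without an RFI group, and the highest, 367 CPM, to Angus steer 8 without an RFI group. The library of that Angus steer, with 1930859 counts, was the smallest of all 60.

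How much of the spread counting error can give differed between members. Within breeds the SD of log2 CPM was 0.37 for bta-miR-141, 0.38 for bta-miR-200a, 0.38 for bta-miR-200b, 0.39 for bta-miR-429 and 0.45 for bta-miR-200c. The SD that random sampling of reads alone would give was 0.06 for bta-miR-141 and 0.12 for bta-miR-200a, and 0.20, 0.22 and 0.27 for bta-miR-429, bta-miR-200b and bta-miR-200c. Counting thus amounted to 2.63% of the variance of bta-miR-141 and to 34.8% of that of bta-miR-200c, the member with the fewest reads and the lowest coefficients. In ratios of members the smallest spread belonged to bta-miR-200a over bta-miR-429, with an SD of 0.30 log2 units against 0.23 from counting, and bta-miR-200a over bta-miR-141 had 0.40 against 0.13. Rank correlation of the members with total counts, after breed means were removed, was between -0.01 and 0.20.

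Other miRNAs were ranked by how closely they followed the summed CPM of the family over the 60 steers, centred on breed. This is a description over 207 miRNAs outside the family that reached 10 CPM in 30 or more steers, all from the same libraries, and their coefficients had a median of -0.00 with 5th and 95th percentiles of -0.30 and 0.31. The 5 most alike were bta-miR-199b at rho = 0.53, bta-miR-99a-5p at 0.40, bta-miR-450a at 0.38, bta-miR-10b at 0.38 and bta-miR-181c at 0.37. With bta-miR-199b the coefficient was above 0 in each breed, from 0.19 in Charolais to 0.77 in KC. It was 0.53 with bta-miR-200b and 0.20 with bta-miR-200c. Since bta-miR-141 makes up most of the sum, a miRNA can follow the sum without following each member. With single members bta-miR-99a-5p ran from 0.02 for bta-miR-429 to 0.47 for bta-miR-141. For bta-miR-450a it was 0.11 with bta-miR-200b to 0.39 with bta-miR-141, and for bta-miR-10b 0.04 with bta-miR-200c to 0.39 with bta-miR-141. For bta-miR-181c it was 0.15 with bta-miR-200c to 0.37 with bta-miR-429. The 2 most opposed were bta-miR-30d at -0.47 and bta-miR-2284x at -0.41, both below 0 in each breed.

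Among the listed epithelial miRNAs, the cluster of bta-miR-183, bta-miR-96 and bta-miR-182 had coefficients above 0. The Spearman coefficient was 0.45 for bta-miR-96, which was too low to be ranked at a median of 5.83 CPM, 0.31 for bta-miR-182 and 0.27 for bta-miR-183, and all 3 were above 0 in each breed. With bta-miR-182 the single members ranged from 0.11 for bta-miR-200c to 0.52 for bta-miR-429. The remaining epithelial miRNAs were at 0.05 for bta-miR-375 and -0.20 for bta-miR-31. Yet bta-miR-375 had rho = 0.47 with bta-miR-429, 0.40 with bta-miR-200a and -0.04 with bta-miR-141, which makes up most of the family sum.

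Hepatocyte miRNAs ran from 0.12 for bta-miR-885 to -0.23 for bta-miR-122, which was at -0.42 in Angus, -0.54 in Charolais and 0.14 in KC. The listed mesenchymal miRNAs, known from stellate cells and fibroblasts, ran from 0.31 for bta-miR-199a-3p and 0.30 for bta-miR-199a-5p, both above bta-miR-183, to -0.02 for bta-miR-143. The list did not hold bta-miR-199b, which shares its number with the miR-199a arms and was at 0.53, above all listed epithelial miRNAs. Leukocyte miRNAs lay between -0.00 and 0.26, erythroid ones between -0.07 and 0.19 and the endothelial arms of miR-126 at -0.06 and -0.09. Of the muscle miRNAs, bta-miR-133a was at 0.17 and bta-miR-1 at -0.11, and bta-miR-206 had no count in 57 of 60 steers. The leukocyte miRNA bta-miR-142-5p showed how unequal the breeds could be, at 0.71 in Angus, 0.13 in Charolais and -0.09 in KC. The range of the summed CPM over steers was 401 to 1141 for the other epithelial list, 5387 to 17386 for the hepatocyte list, 2869 to 5083 for the leukocyte list and 13865 to 20714 for the endothelial list. It was 117568 to 369894 for the mesenchymal list, nearly all of it bta-miR-143, 3513 to 14484 for the erythroid list and 18.9 to 58.5 for the muscle list. The part of cell composition in the correlation among members was not tested.

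**Figure D5:**
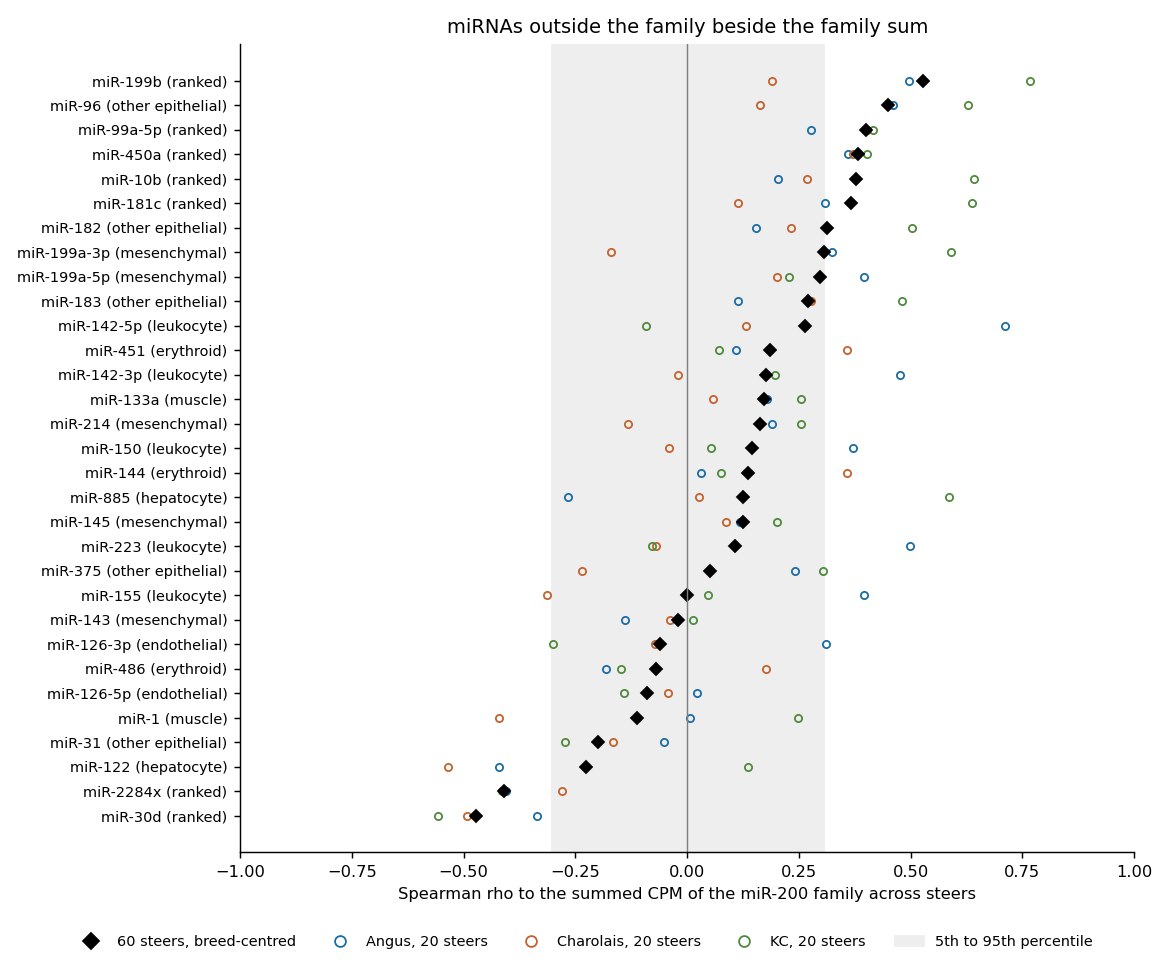
Spearman rho to the summed CPM of the family (x axis) for the ranked miRNAs and the markers of other cells, over 60 steers centred on breed (diamonds) and within breeds (circles), with the 5th to 95th percentile over 207 miRNAs shaded. At the top is bta-miR-199b at 0.53, followed by bta-miR-96 at 0.45, and at the bottom is bta-miR-30d at -0.47.

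Sires were the remaining grouping in the labels. Of the steers that shared a sire, 6 Angus had a median of 177 CPM of bta-miR-141, from 119 to 255, where the other 14 Angus had a median of 142, from 74.9 to 163. In the largest Charolais family of 8 steers the median was 156 CPM, from 88.6 to 244, and 162 in the other 12. In the largest KC family of 8 steers it was 172 CPM, from 70.6 to 209, and 144 in the other 12. These families overlapped with the rest of their breed in bta-miR-141 and in the other 4 members. With the mean of each sire removed in place of the breed mean, in the 49 steers whose sire had at least 2, 9 of 10 pairs of members still passed. The 4 same-locus pairs then ran from 0.44 to 0.60 in rho and the 6 pairs across loci from 0.16 to 0.53, so the ranges overlapped.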

How the data were processed

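Small RNA of liver from 60 steers was sequenced, with 1 library per steer. The deposited values are raw read counts per mature miRNA and precursor, which the authors obtained with miRDeep2 from known bovine miRNAs and the UMD3.1 genome, after clipping adaptors (cutadapt 1.16) and discarding reads of unsuitable length or from rRNA, tRNA and similar RNAs. Counting used default settings, and how reads matching several near-identical members were assigned is not given in the sources used here. Bowtie 1.1.1 is named in the submitters' processing notes.

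Where a miRNA had more than 1 precursor its counts were averaged, and steers were grouped by breed and RFI group from their labels. CPM used TMM library sizes over the 60 steers. edgeR 4.0.16 (limma 3.58.1, R 4.3.3) with the quasi-likelihood F test was run on all miRNAs that reached 1 CPM in 6 or more steers for RFI and 20 or more for breeds, and p-values were adjusted by Benjamini and Hochberg over all miRNAs tested. RFI calls needed an unadjusted p under 0.05 and a fold above 1.5, breed calls an adjusted p under 0.05. Exact permutation tests used log2 CPM with a prior count of 0.5, and correlations were tested by 100000 permutations within breeds. The edgeR fit was tested on simulated data with known changes. Alternatives covered DESeq2 1.42.0, the likelihood-ratio test, RLE size factors, filtering, precursors, depth, blocking by sire and dropping each steer, and 2 that leave out a steer standing apart were added after seeing the data. The rest was done in Python 3.11.15 (scipy 1.17.1, numpy 2.4.6, matplotlib 3.10.9, pandas 2.3.3).

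The members, the marker lists and the tests were chosen with earlier results of these data known. Named were the members, the 5 miRNAs with the highest and the 2 with the lowest Spearman rho to the family sum, and the listed markers of other cells. Mature sequences came from the study's supplementary list. Depth was 1930859 to 6759381 counts per steer, and 3 counts equal 0.444 to 1.55 CPM.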

Additional observations from a re-analysis of the deposited data

Results flagged for a closer look

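Within the 9 groups by breed and RFI group, each of the 5 members was examined for a steer far from the others. By Dixon's criterion 7 of 45 sets of values held one. Its rate of about 1 in 20 by chance holds for independent sets of normally distributed values. The sets here are of linear CPM and of correlated members, so the 7 cannot be read as an excess. In Angus, high-RFI steer 5 had the highest bta-miR-141 of its group at 187 CPM, with the next at 142. Angus low-RFI steer 2 had the lowest bta-miR-141 of its group at 90.9 CPM, with the next at 150. Angus low-RFI steer 1 had the highest bta-miR-200c at 10.4 CPM, with the next at 6.90. In Charolais, high-RFI steer 5 had the highest bta-miR-200c at 14.8 CPM, with the next at 9.99, and steer 6 without an RFI group had the highest bta-miR-200b at 16.8 CPM, with the next at 11.96. KC steer 1 without an RFI group had the highest bta-miR-200a at 70.8 CPM and the highest bta-miR-429 at 28.03 CPM, with the next in its group at 34.7 and 10.9. What set these steers apart was not tested.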

How the results depend on the processing

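No member was called under any alternative in Angus, KC, across breeds, in the interaction or between breeds. In KC against Charolais bta-miR-429 reached an unadjusted p under 0.05 in edgeR with RLE size factors. There bta-miR-200a and bta-miR-429 both did so with no filter and with precursors summed. With steers thinned to the lowest total bta-miR-429 did so in KC against Angus (edgeR, unadjusted p = 0.0197, adjusted p = 0.109). In the RFI comparison in Charolais 2 members were called with sire as a block, where 11.3% of all miRNAs were, and only low-RFI steer 1 shared a sire with high-RFI steers. Dropping each steer in turn gave 0 to 2, with 2 only without low-RFI steer 5, where 2.99% were. Some fold changes changed direction, all past no threshold. With sire as a block these were bta-miR-429 in Angus, from 0.19 to -0.14, and bta-miR-200a across breeds, from -0.07 to 0.13. In KC bta-miR-200a was at -0.0218 with RLE size factors, -0.00531 with the likelihood-ratio test, -0.0308 with DESeq2, -0.00605 with no filter, -0.0231 with precursors summed and -0.0144 without pairs listed only for KC, and bta-miR-429 was at -0.00899 with DESeq2 and -0.00113 with precursors summed. Across breeds bta-miR-200b was at 0.00123 with RLE size factors, 0.00137 with no filter and 0.00318 without those pairs. With steers thinned to the lowest total, bta-miR-429 was at -0.0882 in Charolais against Angus and bta-miR-200b at 0.0575 in KC against Angus. Leaving out each steer turned bta-miR-200b and bta-miR-141 in Angus (-0.154 to 0.0879 and -0.0153 to 0.161), bta-miR-200a in Charolais (-0.0847 to 0.118), bta-miR-200a, bta-miR-200b and bta-miR-429 in KC (-0.142 to 0.0978, -0.0204 to 0.244 and -0.156 to 0.125) and bta-miR-200b across breeds (-0.0668 to 0.0346). The cause was not tested.

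Correlated pairs of members numbered 10 with plain library totals, 9 centred on sire means or with a prior count of 2, and 6 with every steer thinned to 1930856 counts, in 1 random draw. After thinning, same-locus pairs ran from 0.34 to 0.53 in rho and the others from 0.18 to 0.45, so the 2 ranges overlapped, as they did with sire means removed (0.44 to 0.60 and 0.16 to 0.53) and without Charolais low-RFI steer 1 (0.48 to 0.71 and 0.15 to 0.54). With plain totals they ran from 0.61 to 0.75 and from 0.32 to 0.58. Without the Charolais low-RFI steer 1 and without the KC steer 1 that had no RFI group, both chosen after seeing the data, 8 and 9 pairs passed. Depth limits bta-miR-200c most, with 11 reads in its lowest steer. No paired analysis was possible because replicate numbers were given in accession order and pair no steers between groups.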
